A study of Mus musculus with 18 samples.

Results

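Scavenger receptors are cell surface proteins through which macrophages take up modified lipoproteins, bacteria, apoptotic cells and haemoglobin complexes. Expression of 10 genes of this functional group was followed in bone marrow-derived macrophages: Marco, Msr1, Cd36, Scarb1, Olr1, Cd163, Stab1, Mrc1, Lrp1 and Mertk. They were chosen by name and function, with earlier results of these data known. Every probe set whose single gene symbol was one of these was taken. This gave 16 probe sets out of 45037 that are not controls, with 4 for Msr1, 3 for Cd36, 2 for Lrp1 and 1 for each other gene. At the gene level the 10 members stand among 17097 genes, each represented by its probe set with the highest mean.

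The study compared macrophages of Klf3 knockout (KO) and wild-type (WT) mice, both male FVB/NJ animals aged 10 to 14 weeks. Klf3 belongs to the Krüppel-like factors, zinc finger proteins that bind CACCC boxes, and is known mostly as a repressor. Marrow was grown for 7 to 10 days in 20% L929 conditioned medium, which supplies M-CSF to growing macrophages. The groups treated for 8 h, listed next, spent that time without this medium. Groups were KO and WT cells given 100 ng/mL lipopolysaccharide (LPS) for 8 h, KO and WT cells given vehicle (phosphate-buffered saline) for 8 h, and KO and WT cells harvested at 0 h, with 3 arrays each. LPS is a bacterial outer membrane component sensed by Toll-like receptor 4. The labels do not say which part of Klf3 is deleted, or if replicates are separate animals or cultures. The p-values therefore reflect the spread among these arrays alone, which may be technical.

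The family is defined by what it binds, not by descent. Marco and Msr1 are class A receptors with collagen-like stalks that bind polyanions, bacteria and, for Msr1, acetylated lipoproteins. Cd36 and Scarb1 are class B receptors for oxidised lipoproteins, long-chain fatty acids and high-density lipoprotein. Olr1 encodes LOX-1, a C-type lectin-like receptor for oxidised low-density lipoprotein. Cd163 takes up haptoglobin-haemoglobin complexes, Stab1 takes up the matrix protein SPARC and phosphatidylserine-bearing cells, and Mrc1 is the mannose receptor, a C-type lectin. Lrp1 is a large endocytic receptor of the low-density lipoprotein receptor family, and Mertk is a receptor tyrosine kinase that recognises apoptotic cells through the bridging proteins Gas6 and protein S. In macrophages, Cd163, Stab1, Mrc1 and Mertk are widely used as markers of resting or alternatively activated states, whereas Marco and Olr1 are known as inducible receptors.

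RefSeq promoter windows were matched by symbol for 8 of the 10 members, all but Msr1 and Scarb1. The 250 bases before the annotated start in GRCm38.p6 are shown for Marco and Olr1, the members that rose most after LPS, and for Mrc1, which fell after LPS and differed between genotypes. Capitals mark matches to GAGGAA, the core bound by the myeloid factor PU.1, and to TGANTCA, the AP-1 site, on either strand.
Marco, chr1:120505025-120505274, minus strand: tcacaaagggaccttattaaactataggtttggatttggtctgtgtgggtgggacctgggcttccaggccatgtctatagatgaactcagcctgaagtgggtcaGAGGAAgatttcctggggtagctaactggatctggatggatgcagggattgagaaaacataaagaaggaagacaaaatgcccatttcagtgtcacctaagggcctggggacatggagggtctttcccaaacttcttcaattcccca
Olr1, chr6:129507166-129507415, minus strand: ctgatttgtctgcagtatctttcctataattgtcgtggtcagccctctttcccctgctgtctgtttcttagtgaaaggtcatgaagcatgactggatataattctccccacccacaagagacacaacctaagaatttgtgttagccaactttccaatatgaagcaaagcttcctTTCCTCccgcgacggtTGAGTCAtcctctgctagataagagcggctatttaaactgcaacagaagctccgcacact
Mrc1, chr2:14229164-14229413, plus strand: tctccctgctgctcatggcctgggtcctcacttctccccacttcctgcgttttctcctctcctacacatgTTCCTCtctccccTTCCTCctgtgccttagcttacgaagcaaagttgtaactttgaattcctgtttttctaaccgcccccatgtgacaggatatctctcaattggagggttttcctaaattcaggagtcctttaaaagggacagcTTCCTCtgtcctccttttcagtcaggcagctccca
Marco held 1 GAGGAA, with its first base at position -146 counted from the annotated start. Olr1 held GAGGAA on the reverse strand at -76 and TGAGTCA at -60, and Mrc1 held 3 reverse-strand GAGGAA matches, at -180, -167 and -35. GAGGAA was found in 4 of the 8 member windows, against 23.3% of 32851 mouse windows of this length, and TGANTCA in 1 of 8, against 6.75%. CACCC, on either strand, was found in 4 of 8, those of Marco, Olr1, Lrp1 and Mertk, against 52.0%. A 10-base kappaB motif was found in 0 of 8, against 3.9%. No 2 of these matches overlapped. Each match describes letters in a window, not binding.

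Levels below are log2 intensities after quantile normalization of the 18 arrays. Each array's nonspecific level is the 95th percentile of its 23 nonspecific control probe sets, between 3.71 and 4.54. The Klf3 probe set with the largest genotype difference, 1421604_PM_a_at, had KO minus WT differences of -4.46, -4.21 and -4.08 (log2) after LPS, after vehicle and at 0 h, each past the threshold over all probe sets (limma, largest adjusted p = 0.000489). In the same fit 1429360_PM_at also passed in all 3 conditions, with -2.87, -2.21 and -1.86, and the brightest Klf3 probe set, 1454666_PM_at, passed after LPS (-2.28, adjusted p = 0.000208) and vehicle (-1.92, adjusted p = 0.044) but not at 0 h (-1.18, adjusted p = 0.249). The other 3 Klf3 probe sets did not pass, and 1 of them, 1431630_PM_a_at, ran the other way with 0.24, 1.31 and 1.51, its KO arrays all above the WT arrays after vehicle and at 0 h. At 0 h 1441200_PM_at and 1442920_PM_at had 0.69 and 0.67, also without overlap, and after LPS 1441200_PM_at had -0.58, with its KO arrays all below the WT arrays. All 8 macrophage markers lay above the nonspecific level in all 18 arrays. Among the markers of other cells, 4 of 5 for dendritic cells, 5 of 9 for endothelium, 5 of 9 for neutrophils, 7 of 8 for stroma and fat and 3 of 7 for T and B cells lay above it in no array, including Flt3, Zbtb46, Cdh5, Tek, Mpo, Elane and Col1a1. Of the same lists Kdr, Vwf and Mmp8 lay above it in 18 arrays, Cd3e in 17, Pdgfrb in 16, Cd79b in 14, S100a8 and Ccl17 in 12 and the others in 1 to 6. The 5' minus 3' Gapdh signal, a measure of RNA quality, ran from -0.56 to -0.39 in KO and from -0.75 to -0.07 in WT cells after LPS, from -0.32 to -0.14 in KO and from -0.25 to -0.07 in WT cells after vehicle, and from 0.01 to 0.15 in both genotypes at 0 h. The 3 WT LPS arrays had the widest spread around their group mean, with an SD over all genes of 0.28 to 0.34, and KO vehicle array 3 had 0.27, against 0.16 to 0.23 elsewhere. No plate row mixed conditions, and row effects therefore cannot be told apart from treatment. In bulk RNA, fewer cells with a transcript cannot be told apart from less RNA per cell.

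**Figure D1:**
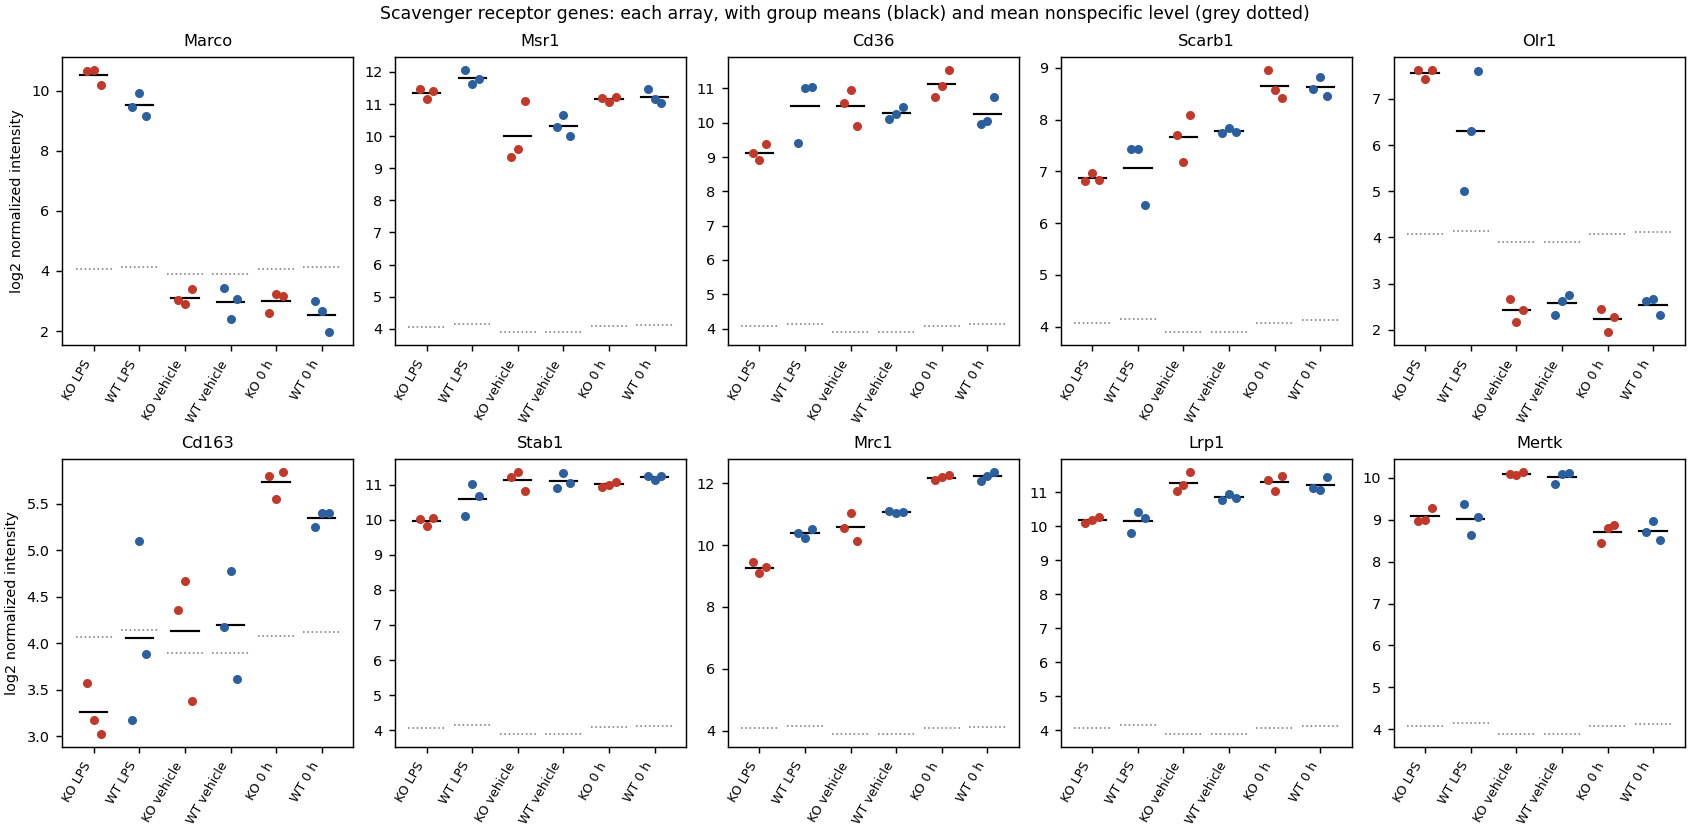
Normalized log2 intensity of the probe set standing for each of the 10 genes (y axis, 1 scale per panel) in every array of the 6 groups (x axis), with KO in red and WT in blue. Black lines are group means of 3 arrays and grey dotted lines the mean nonspecific level. Marco and Olr1 lie above that level in the 6 LPS arrays alone, Mrc1 and Scarb1 are highest at 0 h, and Mertk is highest after vehicle.

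The question of what LPS does to these receptors was asked by comparing LPS with vehicle within each genotype. In KO cells 3 of the 10 rose (Marco, Olr1, Msr1), 6 fell (Cd36, Scarb1, Stab1, Mrc1, Lrp1, Mertk) and Cd163 did not pass, while 34.5% of all genes passed, 13.9% higher and 20.6% lower. In WT cells the same 3 rose, 4 fell (Scarb1, Mrc1, Lrp1, Mertk) and Cd36, Stab1 and Cd163 did not pass, while 32.3% of all genes passed, 13.7% higher and 18.7% lower. The LPS and vehicle arrays did not overlap for 3 members higher and 6 lower in KO cells, beside 19.2% and 26.3% of all genes, and for 3 higher and 4 lower in WT cells, beside 18.4% and 22.6%. The median difference over the 10 members was -0.95 in KO and -0.32 in WT cells (log2), beside -0.03 and -0.01 over all genes. Tests were limma's moderated test over all 18 arrays with Benjamini-Hochberg adjustment over 17097 genes at a threshold of 0.05. Errors of differences are standard errors with n = 3 arrays per group.

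Among the class A receptors, Marco had 10.64, 10.68 and 10.19 in KO cells after LPS, against 3.02, 2.91 and 3.39 in KO cells after vehicle. It had 9.45, 9.92 and 9.17 in WT cells after LPS, against 3.44, 2.41 and 3.06 in WT cells after vehicle. Every LPS array lay far above every array without LPS, and no array without LPS lay above the nonspecific level. Marco rose by 7.40 ± 0.29 (log2 ± SE) in KO cells, at least 97.5-fold (adjusted p = 1.52e-11), and by 6.54 ± 0.29 in WT cells, at least 49.3-fold (adjusted p = 1.05e-10). The "at least" folds, here and below, set the mean of the brighter group against the nonspecific level.

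Msr1, the other class A receptor, had 11.48, 11.16 and 11.40 in KO cells after LPS, against 9.34, 9.59 and 11.08 after vehicle. WT cells had 12.05, 11.62 and 11.77 after LPS, against 10.30, 10.66 and 10.00 after vehicle. KO vehicle array 3 was close to the KO LPS arrays, yet groups did not overlap in either genotype. Msr1 rose by 1.34 ± 0.32 in KO cells (adjusted p = 0.00316) and by 1.50 ± 0.32 in WT cells (adjusted p = 0.00142). Its 4 probe sets rose in both genotypes, by 1.04 to 1.34 in KO and 1.15 to 1.50 in WT cells, beside 12.9% and 11.8% of all probe sets called higher, and correlated pairwise with r = 0.93 to 0.99 over the 18 arrays. The KO call ended without KO replicate 1 (0.94, adjusted p = 0.0788) and in a fit of only the groups compared (adjusted p = 0.0511).

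Olr1, the lectin-like receptor, had 7.62, 7.43 and 7.62 in KO cells after LPS, against 2.66, 2.18 and 2.43 after vehicle. WT cells had 5.0, 6.31 and 7.59 after LPS, against 2.32, 2.63 and 2.76 after vehicle. The 3 KO LPS arrays lay close together, while the WT LPS arrays were spread from just above the nonspecific level to the KO level. Olr1 rose by 5.14 ± 0.41 in KO cells, at least 12.7-fold (adjusted p = 4.96e-08), and by 3.73 ± 0.41 in WT cells, at least 5.32-fold (adjusted p = 2.35e-06). The WT LPS arrays in that order had 5' minus 3' Gapdh values of -0.07, -0.50 and -0.75, whose part in the spread was not tested.

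The class B receptor Cd36 had 9.12, 8.90 and 9.37 in KO cells after LPS, against 10.59, 10.94 and 9.91 after vehicle. WT cells had 9.42, 11.03 and 11.05 after LPS, against 10.09, 10.26 and 10.46 after vehicle. All KO LPS arrays lay under all KO vehicle arrays, while in WT cells array 1 lay under and arrays 2 and 3 lay over the vehicle range. Cd36 fell by 1.35 ± 0.37 in KO cells (adjusted p = 0.00853), and the WT difference was 0.23 ± 0.37 (adjusted p = 0.713). The KO call ended without KO replicate 1 (-1.29, adjusted p = 0.0681) or KO replicate 2 (-1.01, adjusted p = 0.145).

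The 3 Cd36 probe sets did not read alike. Probe set 1450883_PM_a_at fell by 2.18 ± 0.35 in KO cells (adjusted p = 0.000124 over all probe sets), with -0.18 ± 0.35 in WT cells (adjusted p = 0.786). Probe set 1450884_PM_at had -0.81 ± 0.44 in KO cells (adjusted p = 0.202) and rose by 1.29 ± 0.44 in WT cells (adjusted p = 0.0379). In WT LPS array 1 all 3 probe sets were lower than in arrays 2 and 3. Over the 18 arrays the 3 probe sets correlated pairwise with r = 0.75 to 0.89.

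**Figure D2:**
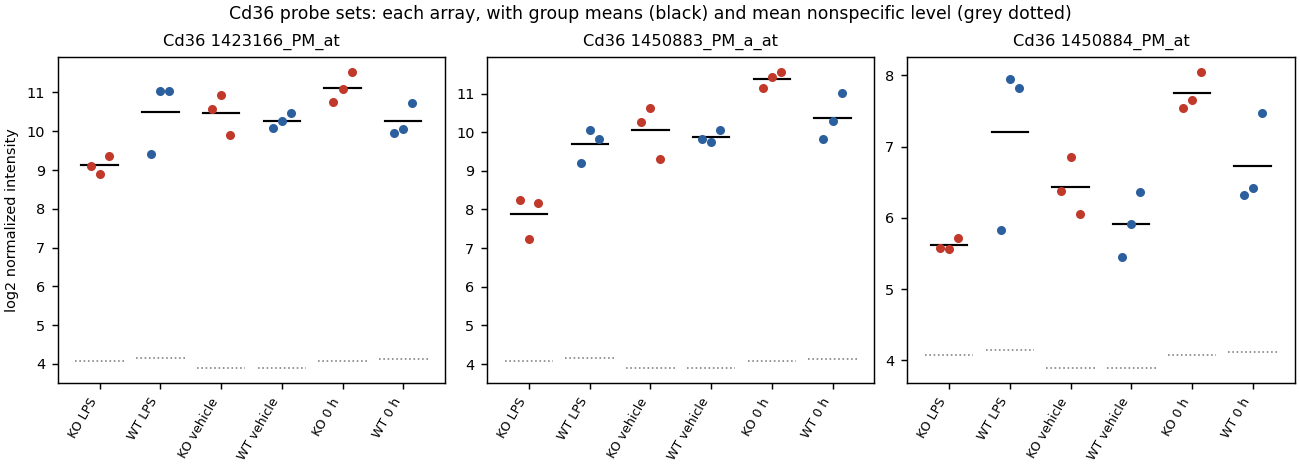
Normalized log2 intensity (y axis) of the 3 Cd36 probe sets, 1 per panel, in every array of the 6 groups (x axis), with KO in red and WT in blue. Black lines are means of 3 arrays and grey dotted lines the mean nonspecific level. In each panel the KO LPS arrays lie under all 3 WT LPS arrays, of which array 1 is the lowest.

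Scarb1, the high-density lipoprotein receptor, had 6.82, 6.98 and 6.83 in KO cells after LPS, against 7.71, 7.19 and 8.09 after vehicle. WT cells had 7.44, 7.44 and 6.34 after LPS, against 7.73, 7.84 and 7.77 after vehicle. The groups did not overlap in either genotype, and WT LPS array 3 stood well below the other two. Scarb1 fell by 0.78 ± 0.26 in KO cells (adjusted p = 0.0263) and by 0.71 ± 0.26 in WT cells (adjusted p = 0.0462). Without WT LPS array 3 the WT difference was -0.34 (adjusted p = 0.262), and without KO vehicle array 3 the KO difference was -0.57 (adjusted p = 0.129). The KO call also ended without KO replicate 1 or 3 (adjusted p = 0.137 and 0.225), and the WT call in 6 further settings (adjusted p = 0.0532 to 0.354).

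Mrc1, the mannose receptor, had 9.45, 9.10 and 9.28 in KO cells after LPS, against 10.57, 11.03 and 10.13 after vehicle. WT cells had 10.39, 10.24 and 10.52 after LPS, against 11.10, 11.03 and 11.09 after vehicle. Every LPS array lay under every vehicle array of its genotype. Mrc1 fell by 1.30 ± 0.17 in KO cells (adjusted p = 1.67e-05) and by 0.69 ± 0.17 in WT cells (adjusted p = 0.00534). The WT call ended when arrays were shifted to equal medians (-0.54, adjusted p = 0.0675) and without WT replicate 2 (-0.64, adjusted p = 0.0587).

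Stab1, a receptor for SPARC and apoptotic cells, had 10.01, 9.83 and 10.06 in KO cells after LPS, against 11.23, 11.37 and 10.83 after vehicle. WT cells had 10.12, 11.02 and 10.67 after LPS, against 10.92, 11.32 and 11.05 after vehicle. The KO groups did not overlap, whereas the WT groups did. Stab1 fell by 1.18 ± 0.19 in KO cells (adjusted p = 0.00011), with -0.49 ± 0.19 in WT cells (adjusted p = 0.0587), a difference that passed in 6 alternative settings (adjusted p = 0.022 to 0.0474).

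Cd163, the haemoglobin scavenger receptor, lay near the nonspecific level, above it in 11 of 18 arrays. It had 3.58, 3.17 and 3.02 in KO cells after LPS, against 4.36, 4.67 and 3.38 after vehicle, and 3.17, 5.10 and 3.89 in WT cells after LPS, against 4.18, 4.78 and 3.62 after vehicle. Groups overlapped in both genotypes, with differences of -0.88 ± 0.40 in KO (adjusted p = 0.11) and -0.14 ± 0.40 in WT cells (adjusted p = 0.844). Without KO vehicle array 3 the KO difference passed (-1.25, adjusted p = 0.0278).

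Lrp1, the large endocytic receptor, had 10.11, 10.19 and 10.27 in KO cells after LPS, against 11.03, 11.21 and 11.60 after vehicle, at probe set 1448655_PM_at. WT cells had 9.80, 10.41 and 10.25 after LPS, against 10.76, 10.96 and 10.84 after vehicle. Groups did not overlap, and Lrp1 fell by 1.09 ± 0.18 in KO (adjusted p = 0.000121) and by 0.70 ± 0.18 in WT cells (adjusted p = 0.0055). The second Lrp1 probe set, 1442849_PM_at, had -0.19 ± 0.29 in KO (adjusted p = 0.708) and 0.42 ± 0.29 in WT cells (adjusted p = 0.351), and its levels did not follow those of the first (r = -0.22 over 18 arrays). With the mean of the 2 probe sets the WT difference was -0.14 (adjusted p = 0.695). The KO call ended with arrays shifted to equal hybridisation controls (-0.77, adjusted p = 0.0935) and the WT call without WT replicate 1 (-0.57, adjusted p = 0.0506).

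Mertk, the apoptotic cell receptor, had 8.97, 8.99 and 9.28 in KO cells after LPS, against 10.08, 10.07 and 10.14 after vehicle. WT cells had 9.37, 8.64 and 9.05 after LPS, against 9.85, 10.08 and 10.12 after vehicle. Groups did not overlap, and the differences were close in size between genotypes. Mertk fell by 1.02 ± 0.18 in KO cells (adjusted p = 0.000197) and by 1.00 ± 0.18 in WT cells (adjusted p = 0.000278). The KO call ended with equal hybridisation controls (-0.86, adjusted p = 0.0643).

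**Figure D3:**
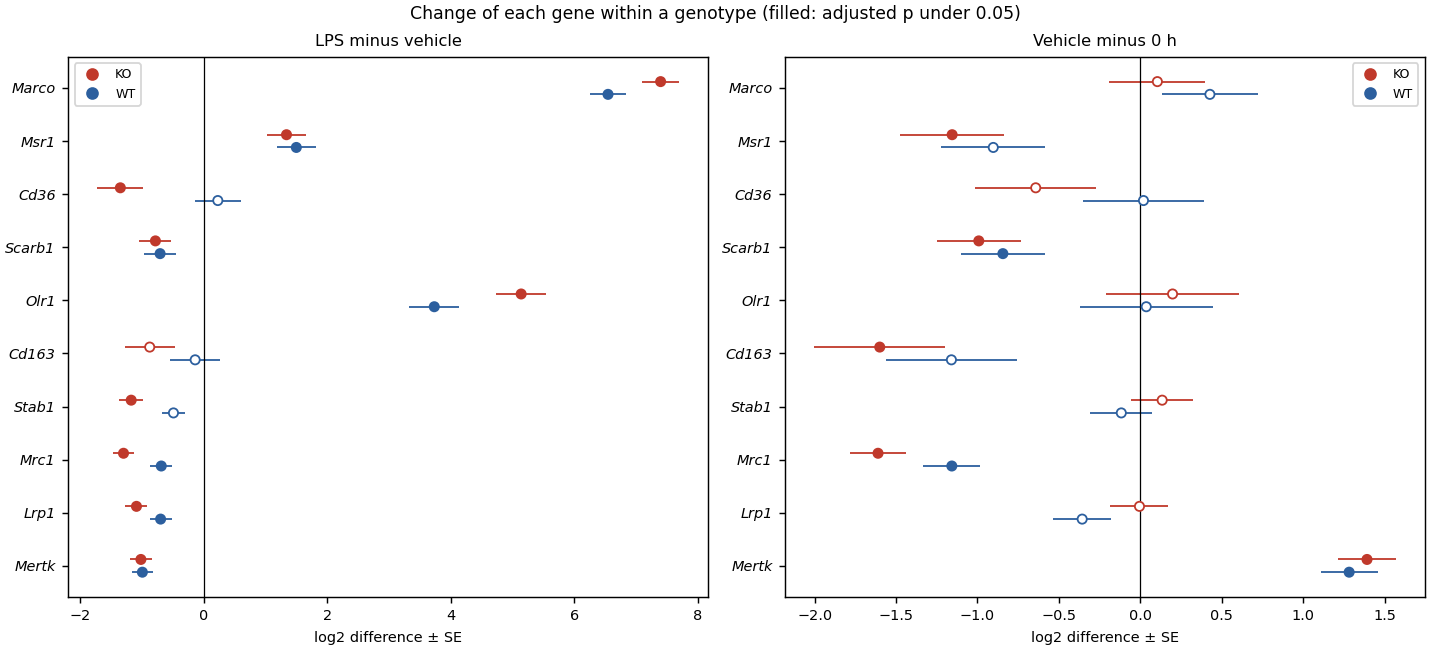
Log2 differences ± SE (x axis) of the 10 genes (y axis) for LPS minus vehicle (left) and vehicle minus 0 h (right), with KO in red above WT in blue and n = 3 arrays per group. Filled points have an adjusted p under 0.05. Marco, Olr1 and Msr1 lie right of 0 after LPS in both genotypes, and Mertk is the only gene right of 0 and filled in the vehicle comparison.

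Whether the LPS response itself differed between genotypes was tested with an interaction contrast. None of the 10 members passed, beside 1.11% of all genes (189), and 4 members and 2077 of the 17097 genes had an unadjusted p under 0.05 (limma). The 4 members were Cd36 with -1.58 ± 0.52 (KO minus WT response, 95% interval -2.69 to -0.47, adjusted p = 0.195), Stab1 with -0.68 ± 0.27 (-1.25 to -0.11, adjusted p = 0.298), Mrc1 with -0.61 ± 0.25 (-1.13 to -0.09, adjusted p = 0.313) and Olr1 with 1.41 ± 0.58 (0.19 to 2.63, adjusted p = 0.321). Marco had 0.85 ± 0.42 (-0.03 to 1.73, adjusted p = 0.435). Closest to 0 were Mertk with -0.02 (-0.55 to 0.50), Scarb1 with -0.08 (-0.85 to 0.70) and Msr1 with -0.16 (-1.11 to 0.80), while Lrp1 had -0.39 (-0.92 to 0.14) and Cd163 -0.74 (-1.94 to 0.47). Higher and lower calls of this contrast over all genes numbered 88 and 101 after quantile normalization and 278 and 16 with deposited values. Cd36 passed without WT LPS array 1 (-2.12, adjusted p = 0.00954), as did Stab1 (-0.93, adjusted p = 0.0355), and Olr1 passed without WT LPS array 3 (2.05, adjusted p = 0.00896). Both arrays belong to the group with the widest spread.

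KO and WT cells were next compared directly after LPS. Of the 10 members, 0 were higher and 2 were lower in KO cells, Mrc1 and Cd36, while 2.82% of all genes were higher and 3.15% lower (5.97% called in all). Mrc1 was lower by 1.11 ± 0.17 in KO cells, 2.15-fold (adjusted p = 0.00109), with its highest KO array (9.45) well under its lowest WT array (10.24). Cd36 was lower by 1.37 ± 0.37 in KO cells, 2.59-fold (adjusted p = 0.0376), but its highest KO array (9.37) and lowest WT array (9.42) nearly met. The Cd36 probe sets 1450883_PM_a_at and 1450884_PM_at had -1.81 ± 0.35 (adjusted p = 0.00682) and -1.58 ± 0.44 (adjusted p = 0.0548). In that fit 2 of the 3 Cd36 probe sets were called lower, beside 1.79% of all probe sets.

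Groups after LPS did not overlap for 5 of the members, 1 higher in KO cells (Marco) and 4 lower (Msr1, Cd36, Stab1, Mrc1), beside 8.39% and 10.1% of all genes. Marco had a KO minus WT difference of 0.99 ± 0.29 (adjusted p = 0.0602), Stab1 of -0.64 ± 0.19 (adjusted p = 0.0598) and Msr1 of -0.47 ± 0.32 (adjusted p = 0.471). Olr1 had 1.26 ± 0.41 (adjusted p = 0.0852), with WT LPS array 3 inside the KO range. Marco passed in 8 alternative settings, and Stab1 and Olr1 in 6 each. Scarb1, Cd163, Lrp1 and Mertk had -0.20 ± 0.26, -0.79 ± 0.40, 0.04 ± 0.18 and 0.06 ± 0.18, with 95% intervals of -0.74 to 0.35, -1.65 to 0.06, -0.34 to 0.42 and -0.31 to 0.43.

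These genotype differences after LPS moved with the scaling of the arrays. Deposited values without normalization and arrays shifted to equal hybridisation controls raised the median KO minus WT difference of all genes to 0.29 and 0.36 (log2), against -0.02 after quantile normalization. With equal hybridisation controls Mrc1 (-0.82, adjusted p = 0.166) and Cd36 (-1.10, adjusted p = 0.0776) did not pass, and Marco (1.54, adjusted p = 0.00126) and Olr1 (1.70, adjusted p = 0.00229) did. Over all genes, higher and lower calls numbered 482 and 538 after quantile normalization, but 514 and 235 when arrays were shifted to equal medians. They numbered 1238 and 129 for values as deposited, and 533 and 73 when hybridisation controls were made equal. Relative to the shift of all genes, Mrc1 and Cd36 remained on the lower side and Marco and Olr1 on the higher side under each of these scalings. The Cd36 call also ended without any 1 of the 3 KO replicates (adjusted p = 0.0594 to 0.17), without WT replicate 2 (-1.11, adjusted p = 0.209) or WT LPS array 3 (-1.10, adjusted p = 0.119), and in a fit of the LPS groups alone (adjusted p = 0.256). Among the marker lists, the summed dendritic cell level after LPS (log2 of summed intensity) was 8.54 to 8.67 in KO and 6.55 to 7.08 in WT cells, with only Ccl17 above the nonspecific level. Of the 8 macrophage markers 3 were lower in KO cells after LPS, Fcgr1 (-1.29 ± 0.28), Itgam (-0.82 ± 0.23) and C5ar1 (-0.65 ± 0.16), and the summed level of the list was 14.6 to 14.7 in KO and 14.9 in WT cells. Of the 9 neutrophil markers Mmp8 was higher (0.69 ± 0.18) and S100a8 lower (-1.28 ± 0.31), with summed levels of 9.08 to 9.48 in KO and 9.15 to 9.82 in WT cells, and of the 9 endothelial markers Vwf was higher (1.61 ± 0.34), with 7.59 to 7.91 in KO and 6.63 to 7.87 in WT cells. No stromal, T or B cell marker passed, and 5.97% of all genes passed in this comparison. The part of these lists in the differences was not tested.

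**Figure D4:**
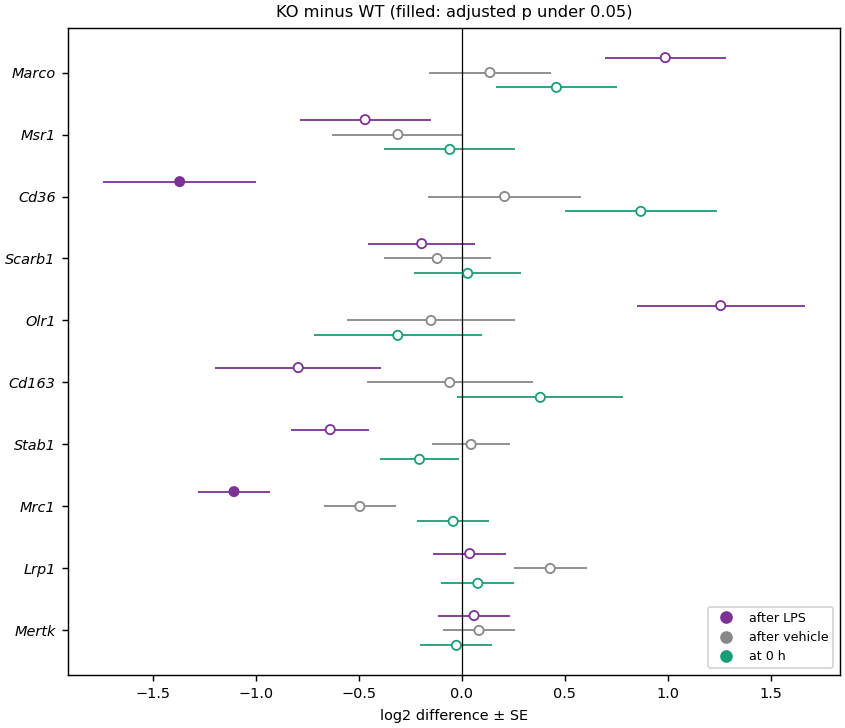
Log2 difference ± SE, KO minus WT (x axis), of the 10 genes (y axis) after LPS (purple), after vehicle (grey) and at 0 h (green), with n = 3 arrays per group. Filled points, Cd36 and Mrc1 after LPS, have an adjusted p under 0.05. Without LPS the differences lie between -0.50 and 0.87 and none is filled.

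Without LPS no member passed between genotypes. After vehicle 0 of 10 members and 0% of all genes passed (limma), with 2 members and 778 genes at an unadjusted p under 0.05. The 2 members were Mrc1 with -0.50 ± 0.17 (adjusted p = 0.875) and Lrp1 with 0.43 ± 0.18 (adjusted p = 1), the 1 member whose KO arrays all lay higher, beside 6.38% of all genes. At 0 h 0 of 10 members and 0.14% of all genes passed, and 1 member, Cd36, and 1063 genes had an unadjusted p under 0.05. Groups at 0 h did not overlap for 2 members higher in KO cells (Cd36, Cd163) and 1 lower (Stab1), beside 7.55% and 7.02% of all genes. At 0 h Cd36 had 10.76, 11.08 and 11.53 in KO cells, against 9.96, 10.06 and 10.74 in WT cells. The 3 KO arrays lay above the 3 WT arrays by a narrow margin, a difference of 0.87 ± 0.37 (adjusted p = 0.735), the opposite sign to that after LPS. Averaged over the 3 conditions 0 of 10 members and 0.368% of all genes passed, and Mrc1 had -0.55 ± 0.09 (adjusted p = 0.063), Marco 0.53 ± 0.14 (adjusted p = 0.218) and Stab1 -0.27 ± 0.11 (adjusted p = 0.452), the 3 members with an unadjusted p under 0.05, beside 1741 of all genes. Mrc1 passed in 7 of the alternative settings of this average. Marco lay above the nonspecific level in no array without LPS, so its average rests partly on values under that level. The summed neutrophil marker level after vehicle was 8.88 to 9.06 in KO and 8.23 to 8.66 in WT cells. At 0 h it was 7.90 to 8.47 in KO and 7.19 to 7.32 in WT cells, where only Mmp8 lay above the nonspecific level. After vehicle Mmp8 had means of 8.67 in KO and 8.04 in WT cells, so these sums mostly rest on this 1 gene. The part of the summed level in these differences was not tested.

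Vehicle against 0 h follows 8 h without conditioned medium. In KO cells 1 member rose (Mertk) and 4 fell (Msr1, Scarb1, Cd163, Mrc1), while 12.5% of all genes passed, 6.76% higher and 5.79% lower. In WT cells 1 rose (Mertk) and 2 fell (Scarb1, Mrc1), while 14.2% passed, 7.16% higher and 7.01% lower. The genotype difference in this change passed for 0 of 10 members and 0% of all genes, with 0 members and 628 genes at an unadjusted p under 0.05 (limma).

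Mertk had 10.08, 10.07 and 10.14 in KO cells after vehicle, against 8.45, 8.81 and 8.87 at 0 h. In WT cells Mertk had 9.85, 10.08 and 10.12 after vehicle, against 8.71, 8.96 and 8.53 at 0 h. All vehicle arrays lay above all 0 h arrays. Mertk rose by 1.39 ± 0.18 in KO cells (adjusted p = 8.73e-05) and by 1.28 ± 0.18 in WT cells (adjusted p = 0.000153). With equal hybridisation controls the differences were 0.93 (adjusted p = 0.116) and 1.03 (adjusted p = 0.0711), and with deposited values the WT difference was 0.91 (adjusted p = 0.0535).

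Mrc1 after vehicle had the levels given above, against 12.11, 12.20 and 12.26 at 0 h in KO cells and 12.07, 12.25 and 12.38 at 0 h in WT cells. The 0 h arrays of both genotypes overlapped and lay over every later array. Mrc1 fell by 1.61 ± 0.17 in KO cells after vehicle (adjusted p = 2.62e-05) and by 1.16 ± 0.17 in WT cells (adjusted p = 0.000343), and the genotype difference in this change was -0.45 ± 0.25 (adjusted p = 0.999).

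Scarb1 after vehicle had 7.71, 7.19 and 8.09 in KO cells, against 8.96, 8.58 and 8.43 at 0 h, and 7.73, 7.84 and 7.77 in WT cells, against 8.59, 8.83 and 8.46 at 0 h. Groups did not overlap, and Scarb1 fell by 0.99 ± 0.26 in KO cells (adjusted p = 0.0182) and by 0.84 ± 0.26 in WT cells (adjusted p = 0.0385). These calls ended without KO replicate 1 or 2, without WT replicate 1 or 2 and, in WT cells, with equal hybridisation controls (adjusted p = 0.0809 to 0.196).

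Msr1 after vehicle had 9.34, 9.59 and 11.08 in KO cells, against 11.20, 11.08 and 11.21 at 0 h, and 10.30, 10.66 and 10.00 in WT cells, against 11.47, 11.15 and 11.04 at 0 h. KO vehicle array 3 reached the 0 h range, while the WT groups did not overlap. Msr1 fell by 1.16 ± 0.32 in KO cells (adjusted p = 0.0242), and the WT difference was -0.90 ± 0.32 (adjusted p = 0.0723). Over all probe sets 4 of its 4 probe sets fell in KO cells and 2 of 4 in WT cells, beside 4.91% and 5.34% of all probe sets called lower. The KO call ended without KO replicate 1 or 2 and in a fit of only the groups compared (adjusted p = 0.12 to 0.281), while the WT difference passed in 6 alternative settings (adjusted p = 0.0156 to 0.0495).

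Cd163 after vehicle had 4.36, 4.67 and 3.38 in KO cells, against 5.80, 5.56 and 5.85 at 0 h, and 4.18, 4.78 and 3.62 in WT cells, against 5.25, 5.40 and 5.40 at 0 h. Only at 0 h did every array lie above the nonspecific level, and vehicle and 0 h arrays did not overlap. Cd163 fell by 1.60 ± 0.40 in KO cells (adjusted p = 0.0146), and the WT difference was -1.16 ± 0.40 (adjusted p = 0.0677). The KO call ended without KO vehicle array 3 (-1.22, adjusted p = 0.0668) and without KO replicate 1 or 3 (adjusted p = 0.103 and 0.171), while the WT difference passed in 9 alternative settings.

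Stab1 at 0 h had 10.95, 10.98 and 11.09 in KO cells and 11.25, 11.14 and 11.26 in WT cells. Lrp1 at 0 h had 11.35, 11.03 and 11.48 in KO cells and 11.14, 11.05 and 11.44 in WT cells. The differences of vehicle from 0 h were 0.13 ± 0.19 in KO and -0.12 ± 0.19 in WT cells for Stab1, and -0.01 ± 0.18 in KO and -0.36 ± 0.18 in WT cells for Lrp1. Cd36 had -0.64 ± 0.37 in KO and 0.02 ± 0.37 in WT cells at its brightest probe set, and 1450883_PM_a_at fell by 1.31 ± 0.35 in KO cells (adjusted p = 0.0222 over all probe sets). Marco and Olr1 at 0 h had 2.60 to 3.23 and 1.94 to 2.46 in KO cells and 1.96 to 2.99 and 2.33 to 2.66 in WT cells, in no array above the nonspecific level.

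Because the vehicle arrays enter both of the preceding comparisons, LPS was also set against 0 h, a comparison added after the data were seen. In KO cells 2 members were higher (Marco, Olr1) and 6 lower, while 37.4% of all genes passed, 16.1% higher and 21.4% lower. In WT cells the same 2 were higher and 5 lower, while 35.5% passed, 15.6% higher and 19.9% lower. Mrc1 was lower by 2.91 ± 0.17 in KO (adjusted p = 1.58e-09) and by 1.85 ± 0.17 in WT cells (adjusted p = 4.06e-07). Scarb1 was lower by 1.78 ± 0.26 in KO (adjusted p = 3.3e-05) and by 1.55 ± 0.26 in WT cells (adjusted p = 0.00015), and Lrp1 by 1.10 ± 0.18 and 1.06 ± 0.18 (adjusted p = 9.6e-05 and 0.000162), a call that ended in both genotypes with the mean of its 2 probe sets (-0.37 and -0.09).

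Cd163 after LPS was lower than at 0 h in both genotypes. In KO cells it was at least 3.17-fold lower, as it lay under the nonspecific level in all 3 LPS arrays (log2 difference -2.48 ± 0.40, adjusted p = 9.71e-05), and in WT cells it was 1.30 ± 0.40 lower (adjusted p = 0.0178). Cd36 was lower than at 0 h in KO cells by 1.99 ± 0.37 (adjusted p = 0.000344), with 0.25 ± 0.37 in WT cells (adjusted p = 0.667). Stab1 was lower by 1.04 ± 0.19 in KO cells (adjusted p = 0.000291) and by 0.61 ± 0.19 in WT cells (adjusted p = 0.0187).

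Msr1 and Mertk did not pass between LPS and 0 h in either genotype. Msr1 had 0.18 ± 0.32 in KO (adjusted p = 0.721) and 0.59 ± 0.32 in WT cells (adjusted p = 0.17), and Mertk had 0.37 ± 0.18 (adjusted p = 0.113) and 0.29 ± 0.18 (adjusted p = 0.234). The WT differences passed for Msr1 in a fit of only the groups compared (adjusted p = 0.0488) and for Mertk without WT replicate 2 (0.59, adjusted p = 0.025). The vehicle arrays lay under both the LPS and the 0 h arrays of their genotype for Msr1, apart from KO vehicle array 3, and over both for Mertk. The WT calls of Cd163 and Stab1 ended without WT LPS array 1 (-0.86 and -0.37, adjusted p = 0.102 and 0.0982). Both also ended in a fit of only the groups compared (adjusted p = 0.0575 and 0.0933). The same held without WT replicate 1 (adjusted p = 0.16 and 0.18) or WT replicate 3 (adjusted p = 0.103 and 0.0915). The Cd163 call ended without WT LPS array 3 as well (-1.22, adjusted p = 0.0565). Of the 3 WT LPS arrays, 1 had Cd163 above the nonspecific level. Cd36 passed as higher in WT cells without WT LPS array 1 (0.78, adjusted p = 0.048).

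Other genes of uptake and its aftermath were followed in lists, with at most 3 genes named per direction. The list counts below stand beside these shares of all genes. After LPS 13.9% rose and 20.6% fell in KO cells, and 13.7% rose and 18.7% fell in WT cells. Between genotypes after LPS 2.82% were higher and 3.15% lower in KO cells. Of 18 other scavenger receptor genes, 1 rose and 4 fell after LPS in KO cells and 1 rose and 3 fell in WT cells. Their medians were -0.14 and -0.01, beside -0.03 and -0.01 over all genes. Only Colec12, Scarb2, Cd68, Cxcl16 and Cd5l had vehicle means well above the nonspecific level. The others had at most 4.06 (Ager in WT cells), so these counts and medians mostly describe dim genes. Cxcl16, a membrane chemokine that binds oxidised lipoprotein, rose by 0.73 ± 0.17 in KO and 0.81 ± 0.17 in WT cells. Scarb2, the lysosomal class B member, fell by 2.31 ± 0.20 and 1.79 ± 0.20, and Colec12, a collectin with a class A-like stalk, fell by 1.76 ± 0.38 and 2.33 ± 0.38. Cd5l, which encodes a secreted protein of the scavenger receptor cysteine-rich family, fell by 2.61 ± 0.47 in KO cells, with -0.66 ± 0.47 in WT cells (adjusted p = 0.333). Its interaction was -1.94 ± 0.67, which did not pass (limma, adjusted p = 0.216). Cd5l was the 1 gene of this list called between genotypes after LPS, where it was lower by 2.46 ± 0.47 in KO cells (adjusted p = 0.0048).

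Of 18 genes of apoptotic cell uptake, 3 rose and 9 fell after LPS in KO cells and 1 rose and 7 fell in WT cells (median -0.48 and -0.50). Itgb5, an integrin subunit that binds milk fat globule protein, fell by 2.32 ± 0.12 in KO and 2.20 ± 0.12 in WT cells. The complement gene C1qb fell by 2.62 ± 0.49 in KO cells, with -0.94 ± 0.49 in WT cells (adjusted p = 0.176). Its interaction was -1.68 ± 0.70, which did not pass (limma, adjusted p = 0.335). Timd4, a phosphatidylserine receptor gene, rose at least 3.25-fold in KO and at least 6.66-fold in WT cells (adjusted p = 0.0415 and 0.000736). After LPS 1 gene of the list was higher in KO cells, the integrin gene Itgav (0.84 ± 0.18), and 3 were lower, C1qb (-3.04 ± 0.49), C1qc (-1.09 ± 0.27) and Pros1, the gene of protein S (-0.59 ± 0.16). C1qb was also lower averaged over the 3 conditions, LPS included (-1.71 ± 0.22, limma, adjusted p = 0.0229). After vehicle KO arrays lay under all WT arrays for C1qb, C1qc and Pros1 (-1.36, -0.87 and -0.28), beside 5.66% of all genes, but none of them passed.

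Of 12 genes of lipid handling, 2 rose and 8 fell after LPS in KO cells and 1 rose and 8 fell in WT cells (median -1.30 and -1.14). Between genotypes after LPS 0 of them passed, beside 5.97% of all genes (limma). Nr1h3, the gene of the sterol sensor LXR alpha, rose by 1.68 ± 0.46 in KO and 1.86 ± 0.46 in WT cells. After vehicle Nr1h3 had means of 4.42 in KO and 4.30 in WT cells, near the nonspecific level. Rxra, its heterodimer partner, fell by 2.09 ± 0.18 and 1.87 ± 0.18, and Apoe, which carries cholesterol out of macrophages, fell by 1.92 ± 0.28 and 2.06 ± 0.28. The cholesterol exporter gene Abcg1 fell by 2.76 ± 0.69 in KO cells (adjusted p = 0.00476), with -0.93 ± 0.69 in WT cells (adjusted p = 0.36). Its interaction was -1.82 ± 0.98, which did not pass (limma, adjusted p = 0.49).

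Of 9 haem and haemoglobin genes, 4 rose and 2 fell after LPS in KO cells and 4 rose and 3 fell in WT cells (median 0.68 and 0.33). Hp, the gene of haptoglobin, whose complex with haemoglobin is the ligand of Cd163, rose by 3.64 ± 0.23 in KO and 6.43 ± 0.23 in WT cells. It was the 1 gene of the list called between genotypes after LPS, where it was lower by 2.90 ± 0.23 in KO cells (adjusted p = 1.92e-06). Hmox1, which degrades haem, rose by 2.07 ± 0.22 in KO and 2.28 ± 0.22 in WT cells.

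Of 11 regulators of scavenger receptor genes, 5 rose and 3 fell after LPS in KO cells and 6 rose and 4 fell in WT cells (median 0.58 and 0.73). Tfec, a factor of the MITF family, rose by 2.46 ± 0.16 in KO and 1.16 ± 0.16 in WT cells, an interaction of 1.31 ± 0.22 (adjusted p = 0.00685). Maf, a factor of alternatively activated macrophages, fell by 1.78 ± 0.21 and 1.32 ± 0.21, and Tgfbr2, a TGF-beta receptor gene, fell by 1.65 ± 0.19 and 0.84 ± 0.19. After LPS Tfec was higher in KO cells (1.15 ± 0.16), and Maf (-0.88 ± 0.21) and Tgfbr2 (-1.13 ± 0.19) were lower. Of 11 genes of the low-density lipoprotein receptor family and its chaperones, 2 rose and 1 fell after LPS in KO cells and 2 rose and 2 fell in WT cells. Lrp10 rose by 1.14 ± 0.13 in KO and 1.35 ± 0.13 in WT cells and Lrp12 fell by 0.79 ± 0.16 and 1.74 ± 0.16. After LPS Lrp12 was higher (0.61 ± 0.16) and Sorl1, a sorting receptor gene, lower (-1.26 ± 0.20) in KO cells. Sorl1 was also lower averaged over all conditions, LPS included (-0.94 ± 0.13, limma, adjusted p = 0.0283). After vehicle its difference was -0.865 ± 0.20, without overlap but not past the threshold (limma, adjusted p = 0.295).

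The members were also compared with each other and with the 10333 genes above the nonspecific level in at least 3 arrays, by Pearson correlation over the 18 arrays. The arrays share conditions and normalization, so these values are descriptions. Marco and Olr1 lay above the nonspecific level in the 6 LPS arrays alone, so any r with them mostly sets these arrays against the others. Marco and Olr1 had r = 0.96, and Marco had r = -0.89 with Lrp1, -0.85 with Stab1 and -0.80 with Mrc1. Mrc1 and Cd163 had r = 0.87, and Mrc1 and Scarb1 r = 0.84. Mertk had r between -0.68, with Msr1, and 0.16, with Stab1. The genes most like Marco were 6530402F18Rik, Upp1 and Fscn1 (r = 0.99 each), those most like Olr1 were Tpbpa, Agrn and Tshz1 (0.98 to 0.99), and those most like Mrc1 were Clec10a, Sfmbt1 and Mrps16 (0.96 to 0.97). Ubash3b, Cd33 and Ch25h were most like Msr1 (0.92 to 0.94), Serf2, Gmfg and Ppargc1b most like Cd36 (0.86 to 0.88), and Cops6, Map3k20 and Selplg most like Scarb1 (0.95 to 0.96). Mrps16, Lifr and Lsp1 were most like Cd163 (0.91 to 0.93), Ttyh3, Treml1 and Ssh2 most like Stab1 (0.93 to 0.94), Spag5, Cdca5 and Prc1 most like Lrp1 (0.96 to 0.97), and Lyst, Purg and Ctnnb1 most like Mertk (0.94 each).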

How the data were processed

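The series holds 18 arrays in 6 groups of 3. Each array came with 1 deposited linear intensity per probe set, made by the authors with Partek, per the submitters' processing notes. For its version, the background correction and the genome build the sources used here give nothing. Array medians ran from 11.4 to 18.6, so log2 was taken and arrays were quantile-normalized over all 45141 probe sets. Symbols came from GEO's platform annotation, which can be old. Of 45037 probe sets that are not controls, 28898 had 1 symbol, 551 several and 15588 none. Promoter sequences are from RefSeq.

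limma 3.58.1 in R 4.3.3 was fitted with 1 mean per group and no block to all 18 arrays, with two-sided tests. Of 12 comparisons 10 were designed and 2, LPS against 0 h, were added. For KO against WT over the conditions, arrays of 1 genotype and number were averaged first (3 against 3). A second fit used all 45037 probe sets. In simulated data of 17097 genes, 100 genes were shifted by 1 and 100 by 2 (log2) in the KO LPS arrays, and the rest were left unchanged. These shifts were recovered in 67% and 99% of cases for LPS against vehicle in KO cells. For the genotype difference in the LPS response the shares were 45% and 93%. Far fewer genes changed there than passed for LPS against vehicle in KO cells here (34.5%), so these shares do not measure recovery in these data. The number of arrays limits the precision. Members and lists were chosen with earlier results of these data known. All members are named, with at most 3 genes per direction of each other list past the threshold with the largest change, the 3 genes most like each member, and Klf3. Genes named beyond this rule were chosen after their values were seen.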

Additional observations from a re-analysis of the deposited data

How the results depend on the processing

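Of 2140 member differences recomputed under other scalings, low-value treatments, probe set rules, variance models, blocks and subsets of arrays, 0 called ones changed sign and 122 uncalled ones did. For the genotype difference in the LPS response (0 members called), 1 was called when hybridisation controls were made equal and 1 when low values were raised to the nonspecific level, and 0 to 2 when single replicates or arrays were left out. For KO against WT after LPS (2 called), 4 were called with deposited values, equal medians, a pseudocount of 16, genes above the nonspecific level in 3 arrays, or trend and robust variance, 5 with raised values, 1 with only the groups compared, and 1 to 3 with replicates left out. For KO against WT over the conditions (0 called), 1 was called, Mrc1 each time (adjusted p = 0.00454 to 0.0434), with equal medians, the pseudocount, raised values, the filter on dim genes, the mean of a gene's probe sets, all 18 arrays without averaging, or trend and robust variance. For vehicle against 0 h, 2 to 4 were called in KO cells (5 in the main setting) with replicates left out. In WT cells (3) 5 were called with deposited values, equal medians, raised values, the filter on dim genes or only the groups compared. Calls over all genes also moved with the setting, given below for some, so none of these counts sets members apart from other genes. The calls of LPS against vehicle ranged from 6 to 9 in KO cells and 5 to 7 in WT cells with replicates left out. Genes called higher and lower in LPS against vehicle numbered 2375 and 3520 in KO and 2336 and 3191 in WT cells, but 743 and 6702 in WT cells with deposited values, 611 and 4565 with equal hybridisation controls and 1581 and 3866 with equal medians, with a median over all genes of -0.44, -0.43 and -0.05. For the genotype difference in the LPS response these numbers were 88 and 101 in the main setting, 144 and 42 with equal medians and 120 and 12 with equal hybridisation controls. For KO against WT after LPS they were 482 and 538, but 46 and 43 with only the groups compared. LPS against 0 h gave 2745 and 3652 in KO and 2661 and 3409 in WT cells, but 1157 and 4720 and 586 and 9722 with deposited values. With deposited values vehicle against 0 h gave 199 higher and 1559 lower genes in KO cells (1155 and 990 in the main setting) and 222 and 1465 in WT cells (1225 and 1198). Arrays of the same genotype and number, which also shared a plate column, deviated together weakly at most (18 pairs, r from -0.05 to 0.14, median 0.04, 2 over 0.1). For arrays of the same genotype and other numbers the median was -0.025 (36 pairs). A replicate block changed the call of Cd163 in WT vehicle against 0 h (adjusted p = 0.0389) and of no other member in any comparison. Signal near the nonspecific level limits Cd163 in all groups and Marco and Olr1 without LPS.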
